A study of Mus musculus with 375 samples.

Results

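The 10 transcripts described here encode the enzymes that build fatty acids from citrate and then lengthen and desaturate them: Acly, Acaca, Fasn, Elovl1, Elovl5, Elovl6, Fads1, Fads2, Scd1 and Scd2. They were taken by name, and all 10 had a row among the 23420 genes of the table. They were read in single cells sorted by flow cytometry as positive for Lgr5, the marker of the stem cells at the base of small intestinal crypts, of mice given a high-fat diet (HFD) or a control diet. The cells formed 4 sets, HFD 1, HFD 2, control 1 and control 2, and 91, 92, 93 and 91 of their cells had at least 2000 genes above 0, which is 367 of 375 cells in all. Each cell was sequenced by Smart-seq2, which copies whole transcripts of 1 cell in a well. The labels used here give no strain, allele, age, sex or length of feeding, no diet composition, and no statement on whether a set is 1 mouse or several, so p-values cover the spread between these sets only, which may be technical.

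Fatty acid synthesis starts in the cytosol. ATP citrate lyase (Acly) splits citrate into acetyl-CoA and oxaloacetate, acetyl-CoA carboxylase 1 (Acaca) turns acetyl-CoA into malonyl-CoA in the committed step, and fatty acid synthase (Fasn) joins these units into palmitate. Elongases of the Elovl family then add carbon pairs in the endoplasmic reticulum, and desaturases place double bonds: the Scd enzymes make monounsaturated oleate and palmitoleate, and Fads1 and Fads2 make long polyunsaturated chains from dietary linoleic and linolenic acid. In the liver many of these genes are induced by the transcription factors SREBP1 and ChREBP and repressed by dietary polyunsaturated fat. In the intestine fatty acids also arrive from food, and dividing crypt cells need them for membranes.

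In both diets the desaturase transcripts Fads2 and Fads1 stood highest of the 10, and Scd2 and Scd1 lowest. On the TPM scale, which is per transcript length, the order of the mean levels was Fads2, Fads1, Elovl1, Acly, Fasn, Elovl5, Acaca, Elovl6, Scd2 and Scd1. Of the 9 neighbouring pairs in this order, 7 had ranges over the 4 sets that did not overlap. The exceptions were Elovl1 beside Acly and Fasn beside Elovl5, whose ranges overlapped. Fads2 alone made up 45.9% and 48.8% of the summed TPM of the 10 transcripts in HFD 1 and HFD 2, against 54.3% and 53.3% in control 1 and control 2. This share of the sum was not tested between the diets.

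On GRCm38, by GENCODE M21, the desaturase genes lie on chromosome 19 in 2 groups: Fads2 (chr19:10062765-10101746, minus strand) beside Fads1 (chr19:10182888-10196877, plus strand), and Scd2 (chr19:44293674-44306864, plus strand) beside Scd1 (chr19:44394455-44407879, minus strand). The genes of palmitate synthesis all lie on chromosome 11, Acaca at chr11:84129672-84401651 on the plus strand, Acly at chr11:100476353-100528000 and Fasn at chr11:120805846-120824547, both on the minus strand. The elongase genes are apart, Elovl6 at chr3:129532355-129638495, Elovl1 at chr4:118428093-118432953 and Elovl5 at chr9:77917364-77984519, all on the plus strand. TPM was given for the whole gene, so no exon or isoform can be told apart.

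**Figure D1:**
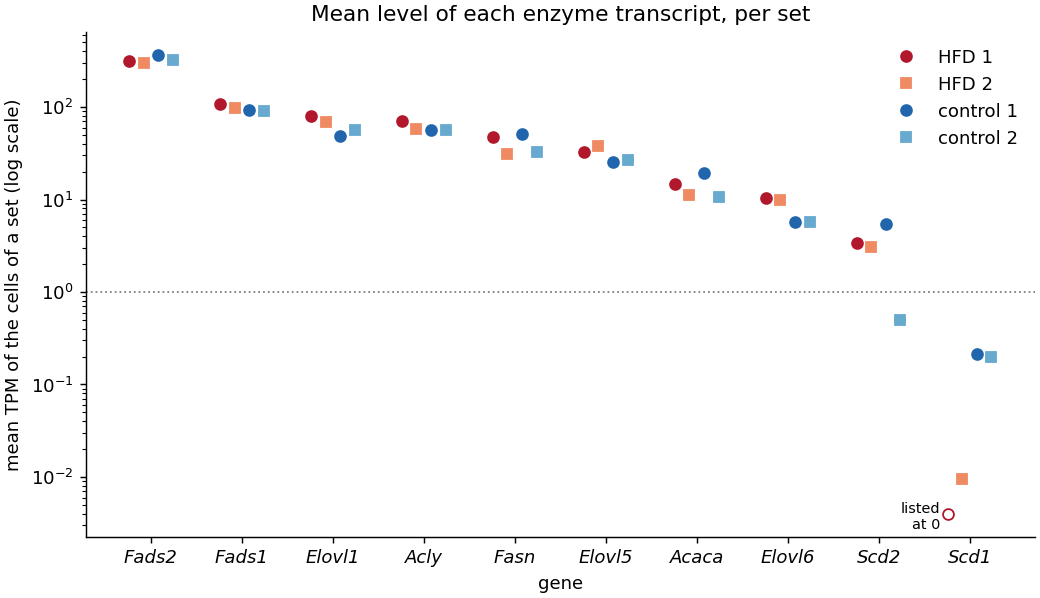
Mean TPM over the cells of each set (vertical log axis) for each of the 10 transcripts, ordered by level; red and orange are HFD sets, dark and light blue are control sets, the dotted line is 1 TPM, and the open symbol marks a set listed at 0. Fads2 lies at 300.01 to 363.4 TPM in all 4 sets, and Scd1 stays under 1 TPM in each.

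The sort and the cells bear on every value. Lgr5 was at 1 TPM or more in 95.6% and 94.6% of HFD cells and 95.7% and 93.4% of control cells. Adipocytes, which hold these enzymes at high levels in fat tissue, left little trace: the adipocyte markers Adipoq, Lep, Plin1 and Fabp4 were at 0 in all 4 sets, and 8 adipocyte markers together summed to 1.96 and 0.321 TPM in the HFD sets and 1.11 and 0.235 TPM in the control sets. With 3 or more Paneth markers of at least 10 TPM each as the limit, 24 and 19 HFD cells and 9 and 6 control cells carried them, and by the same limit 9 and 7 against 7 and 4 cells carried goblet markers. Enterocyte markers passed it in 365 of 367 cells, immune markers in 1 cell, of HFD 2, and enteroendocrine, tuft, stromal and adipocyte markers in 0. Rn45s, the ribosomal RNA precursor, took 26.9% and 18.6% of all TPM in the HFD sets and 39.1% and 24.6% in the control sets, which lowers every other TPM of a set by its share. Read depth cannot be recovered from TPM and is unknown for every value below.

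The enzymes were first compared between diets over the set means, as a test of whether the high-fat diet moved this pathway in the sorted cells. None of the 9 transcripts that passed the filter of 1 TPM on the mean of the sets differed between the diets at an adjusted p under 0.05 (limma with Benjamini-Hochberg adjustment over 11667 genes), where 0.506% of all tested genes did. Scd1 failed the filter. At an unadjusted p under 0.05, 1 of the 9 passed, Elovl6, where 11.1% of all genes did. The median log2 fold change, HFD over control, was 0.17 over the 9 and 0.13 over all tested genes. The sets of both diets did not overlap for Acly, Elovl1, Elovl5, Elovl6 and Fads1, higher in the HFD sets, or for Fads2, lower in them, whereas 41.8% of all tested genes had sets that did not overlap (29.5% higher, 12.3% lower). With Rn45s left out of the total the signs of Acly and Fads1 turned, to -0.01 and -0.03 on the log2 scale. Fads2 then stood at -0.34 (adjusted p 0.828 by limma), and Elovl6 at 0.60 with an unadjusted p of 0.159 by limma.

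Of the 3 enzymes that make palmitate, Acly and Fasn were held by more cells than Acaca in each set. Acly averaged 69.8 and 57.6 TPM in the HFD sets and 55.9 and 56.4 TPM in the control sets. Its log2 fold change was 0.17 (SE 0.25, 95% interval -0.34 to 0.68, adjusted p 0.845 by limma). Acly was at 1 TPM or more in 95.6% and 83.7% of HFD cells and 89.2% and 89.0% of control cells, and its median cell stood at 63.8 and 45.7 TPM against 48.6 and 42.5 TPM.

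Acaca averaged 14.7 and 11.1 TPM in the HFD sets and 19.5 and 10.6 TPM in the control sets, and was held by 72.5% and 47.8% of HFD cells and 76.3% and 44.0% of control cells. The spread lay between the sets of one diet and not between the diets: HFD 1 and control 1 were both higher than HFD 2 and control 2. The log2 fold change for diet was -0.16 (SE 0.33, 95% interval -0.85 to 0.52, adjusted p 0.898 by limma), and it turned to 0.25 without control 1 and to 0.02 without HFD 2. Of the 50-base words of the Acaca transcripts, 30.4% (5234) also occur in other annotated genes, and 5016 of these in Gm5182, which has no row in the table.

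Fasn averaged 47.9 and 30.7 TPM in the HFD sets and 51.6 and 32.9 TPM in the control sets, in 87.9% and 81.5% of HFD cells and 92.5% and 75.8% of control cells. It showed the same order of sets as Acaca: set 1 exceeded set 2 by 0.62 on the log2 scale under HFD and by 0.64 under the control diet, and for Acaca these values were 0.38 and 0.83. The sets numbered 1 also had more genes per cell, with medians of 6857 and 6348.5 in HFD 1 and HFD 2 and 6895 and 6130 in control 1 and control 2; the part of this in the order was not tested. The diet fold change of Fasn was -0.10 (SE 0.28, 95% interval -0.68 to 0.48, adjusted p 0.927 by limma) and turned to 0.22 without control 1, to 0.21 without HFD 2 and to 0.06 among cells with neither Paneth nor goblet markers.

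Acaca and Fasn were found together in 64.8% and 42.4% of HFD cells and 73.1% and 30.8% of control cells, against 63.8% and 39.0%, and 70.6% and 33.3%, that the product of their shares gives in those sets. Every interval of the joint share (95% Clopper-Pearson, counting error only) held that product. The single shares limit how far a joint share can move, so this does not show that both are held independently.

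**Figure D2:**
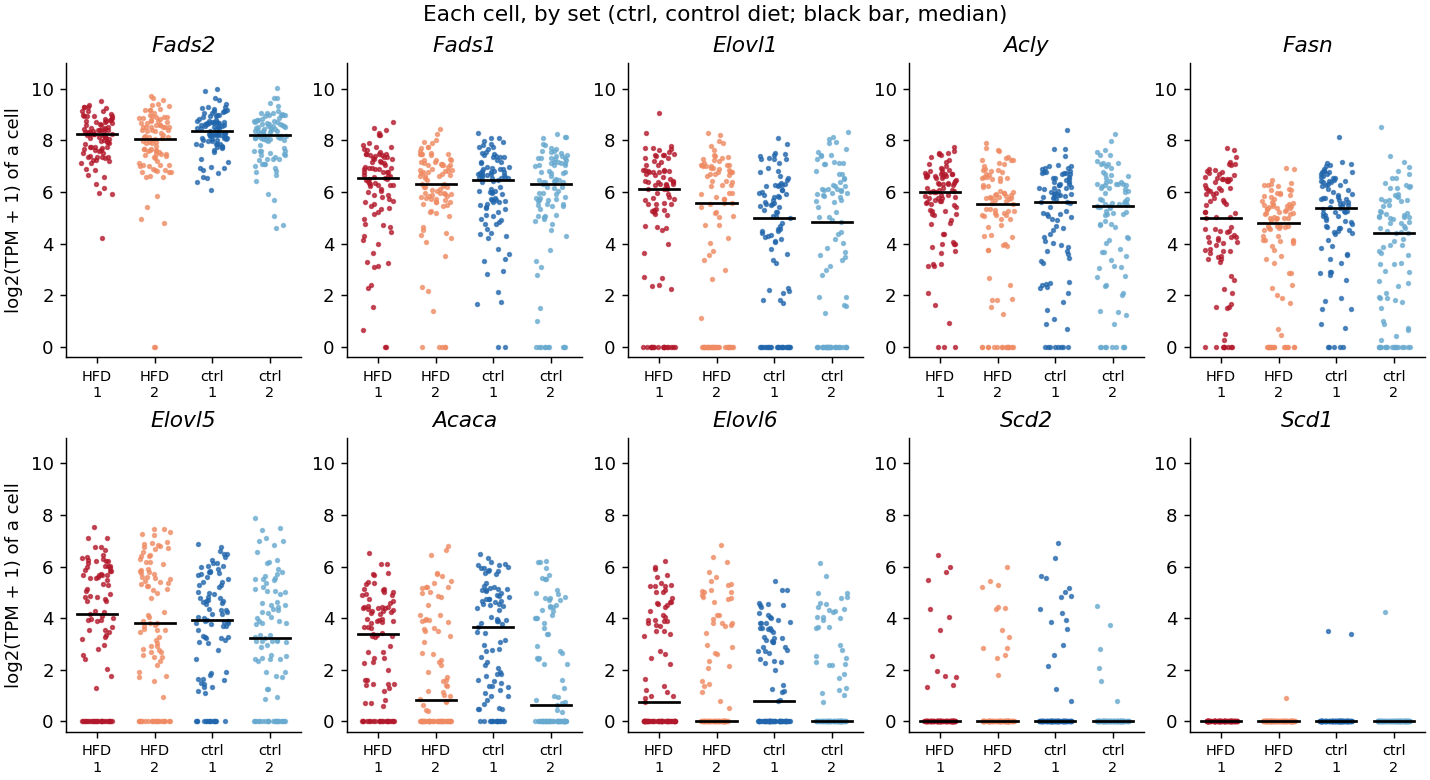
Each point is 1 cell, plotted as log2(TPM + 1), by set and transcript, with HFD sets left of control sets and the median as a black bar; horizontal scatter within a set only separates points. Fads2 is above 0 in all but 2 cells, whereas Scd2 is at 1 TPM or more in 49 and Scd1 in 3 of 367 cells.

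The elongases differed from each other in level and in spread over cells. Elovl1, which lengthens saturated and monounsaturated acyl chains to very long ones used in sphingolipids, averaged 79.3 and 68.0 TPM in the HFD sets and 49.2 and 56.8 TPM in the control sets. Both HFD sets were above both control sets, with a log2 fold change of 0.47 (SE 0.25, 95% interval -0.04 to 0.98, adjusted p 0.493 by limma). Elovl5, which lengthens polyunsaturated chains made by Fads2, averaged 32.5 and 37.8 TPM in the HFD sets and 25.1 and 26.9 TPM in the control sets (log2 0.42, SE 0.26, 95% interval -0.12 to 0.96, adjusted p 0.567 by limma).

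Elovl6, which lengthens palmitate to stearate and so follows directly on Fasn, averaged 10.5 and 9.88 TPM in the HFD sets and 5.72 and 5.67 TPM in the control sets. Its HFD mean was 10.2 ± 0.418 TPM and its control mean 5.70 ± 0.031 TPM (SD, n = 2 sets each), the largest diet ratio among the 9 tested transcripts (log2 0.74, SE 0.35, 95% interval 0.02 to 1.45, unadjusted p 0.0431 and adjusted p 0.436 by limma). It was the least frequent elongase of the 3, at 1 TPM or more in 46.2% and 40.2% of HFD cells and 48.4% and 37.4% of control cells. The fold changes of the 3 elongases stayed above 0 in all 15 alternative analyses of each, from 0.29 to 0.62 for Elovl1, from 0.23 to 0.52 for Elovl5 and from 0.31 to 0.83 for Elovl6, and none was called in any of them. Several of the 15 could not turn the sign. The filters and the replicate block leave the estimate unchanged. Leaving out a set, or another pseudocount, cannot turn it where both HFD sets lie above both control sets. Among cells with neither Paneth nor goblet markers the values were 0.46 for Elovl1, 0.40 for Elovl5 and 0.69 for Elovl6.

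**Figure D3:**
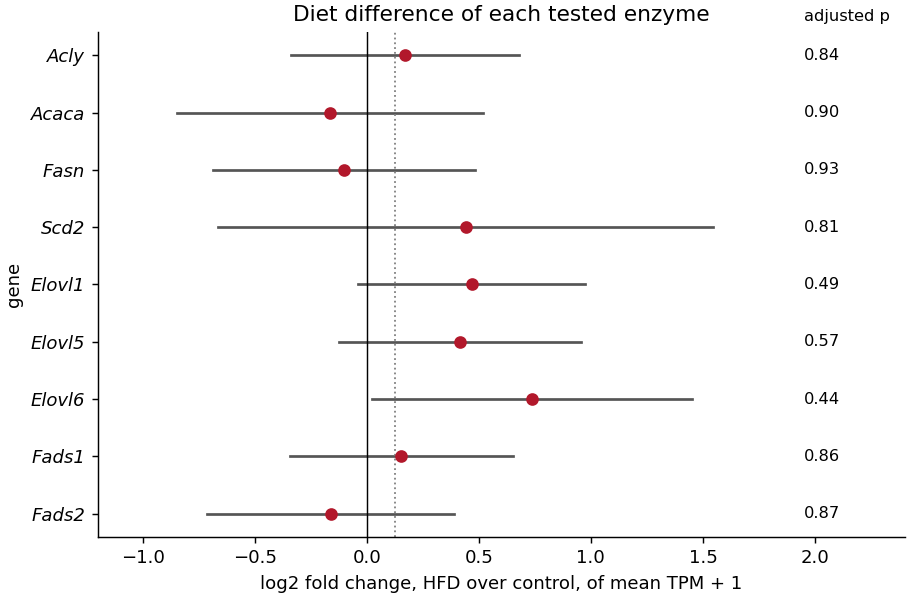
Log2 fold change, HFD over control, of the set means of TPM + 1 (horizontal axis) for the 9 tested transcripts; points are estimates, bars are 95% intervals of limma, the dotted line is the median of all tested genes, and the numbers on the right are adjusted p-values. Only the interval of Elovl6 excludes 0, and no adjusted p is below 0.436.

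The share of cells holding a transcript and its level in those cells were read apart. Elovl1 was held by 81.3% and 68.5% of HFD cells and 76.3% and 69.2% of control cells, and Elovl5 by 72.5% and 77.2% against 83.9% and 73.6%, so the shares of both diets overlapped. In the cells that held them, the geometric mean level was 14.8 TPM under HFD and 8.95 TPM under the control diet for Elovl6, 67.99 and 41.7 TPM for Elovl1, and 27.7 and 17.5 TPM for Elovl5. The mean log2 TPM of holding cells differed by 0.72 for Elovl6, 0.71 for Elovl1 and 0.66 for Elovl5, HFD minus control, against a pooled SD between sets of 0.054, 0.10 and 0.089. Exact permutation of the sets, two-sided, gave p 0.333 for each, the smallest it can give with 2 sets a diet. Acly (0.38, pooled SD 0.13) and Acaca (-0.30, pooled SD 0.099) had the same p. Over the 10962 tested genes with at least 5 holding cells in every set, the median of this difference was 0.17, and 7.44% had one as high as that of Elovl5 or higher. In 31.2% of them both HFD sets were above both control sets, and in 8.94% below. This view over all genes was added after the values of the enzymes were seen. HFD cells also had the higher score of S phase and G2/M markers, at 3.38 and 3.08 against 2.78 and 2.74 mean log2(TPM + 1) in the control sets; its part in the level of the elongases was not tested.

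**Figure D4:**
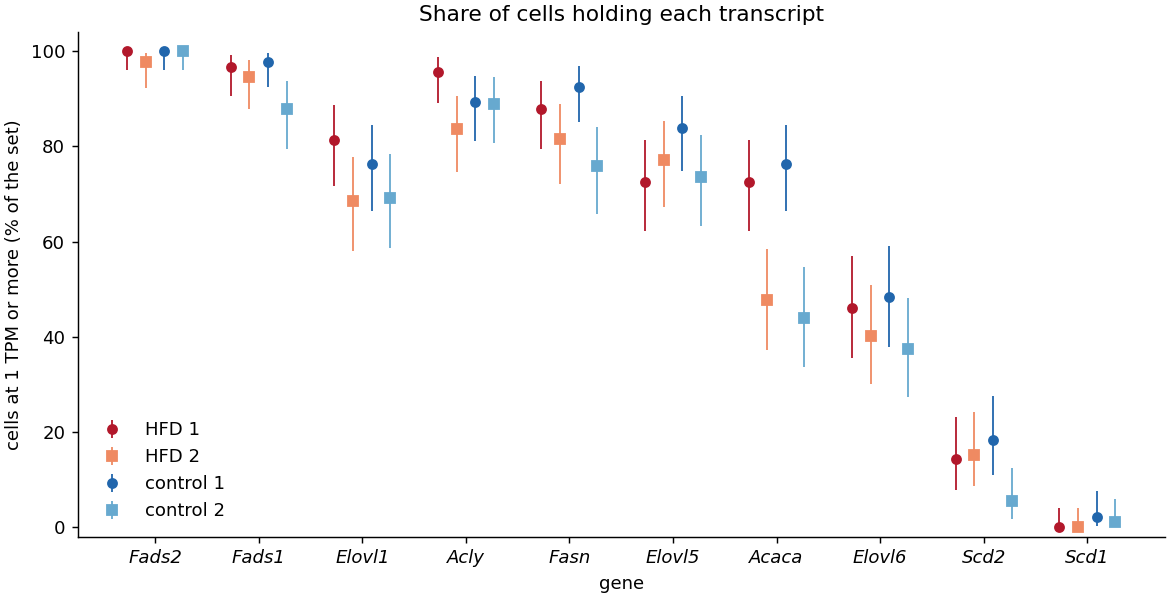
Share of the cells of each set at 1 TPM or more (vertical axis, percent) for each transcript, with HFD sets left of control sets; bars are 95% Clopper-Pearson intervals and cover counting error only. The shares run from 97.8% to 100% for Fads2 down to 0.0% to 2.15% for Scd1, and for Acaca the sets numbered 1 lie above the sets numbered 2 in both diets.

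No share differed between the diets beyond its test. The exact permutation p was 0.333 for Scd1, 0.667 for Elovl5 and 1.0 for the other 8, and all 10 were 1.0 after Benjamini-Hochberg adjustment. This test cannot pass 0.05 with 2 sets a diet.

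Fads2, the delta-6 desaturase that opens the polyunsaturated route, averaged 311 and 300.01 TPM in the HFD sets and 363 and 321 TPM in the control sets. It was the only tested member with both HFD sets below both control sets, with a log2 fold change of -0.16 (SE 0.27, 95% interval -0.71 to 0.39, adjusted p 0.869 by limma). Fads1, the delta-5 desaturase that acts after Fads2 and Elovl5, averaged 108.5 and 97.1 TPM in the HFD sets and 93.3 and 91.1 TPM in the control sets (log2 0.15, SE 0.24, adjusted p 0.860 by limma). Set by set, the mean of Fads2 was 2.87 and 3.09 times that of Fads1 under HFD and 3.90 and 3.53 times under the control diet. These ratios were not tested, and no ratios of other gene pairs are given beside them.

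Fads2 was the only transcript of the 10 held by nearly every cell, with 2 of 367 cells below 1 TPM, both in HFD 2. Over cells it reached from 17.7, through a median of 302, to 745 TPM in HFD 1 and from 0.0 through 267 to 845 TPM in HFD 2. In control 1 it reached from 67.4 through 331 to 1008 TPM and in control 2 from 23.6 through 298 to 1044 TPM. Fads1 was held by 96.7% and 94.6% of HFD cells and 97.8% and 87.9% of control cells. Fads3, a relative that lies beside Fads2 in the genome, averaged 24.2 and 10.5 TPM against 33.7 and 19.2 TPM, and 58.6% of all cells held it. Fads3 and the other relatives of the same families were added after their values were seen.

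The Scd enzymes, which introduce the double bond of oleate, were close to absent. Scd1 averaged 0.0 and 0.00946 TPM in the HFD sets and 0.215 and 0.199 TPM in the control sets. It was at 1 TPM or more in 0 of 91 and 0 of 92 HFD cells, which allows shares of up to 3.30% and 3.26% by the limit of 3 cells (upper ends of the Clopper-Pearson intervals 3.97% and 3.93%), and in 2.15% and 1.10% of control cells. Those were 3 cells, at 9.53 and 10.5 TPM in control 1 and 18.1 TPM in control 2, and 1 further cell of HFD 2 held 0.87 TPM. At this number of cells a diet difference in Scd1 was not detectable. Of the 50-base words of Scd1 and Scd2, 4.56% and 3.97% also occur in other genes, most of them in Scd genes, where counting could split reads.

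Scd2 averaged 3.39 and 3.08 TPM in the HFD sets and 5.49 and 0.50 TPM in the control sets, and was held by 14.3% and 15.2% of HFD cells and 18.3% and 5.49% of control cells. Its log2 fold change was 0.44 (SE 0.53, adjusted p 0.812 by limma), and 1 control set decided its sign: it was -0.61 without control 2 and 1.497 without control 1. In each set a single cell supplied 28.4% and 22.1% of the summed Scd2 TPM under HFD and 23.7% and 47.0% under the control diet. Its paralogs were low as well: Scd3 averaged 0.840 and 1.42 TPM against 0.989 and 0.799 TPM, and Scd4 0.471 and 0.768 TPM against 0.570 and 0.441 TPM. All 4 Scd genes together summed to 4.70 and 5.28 TPM in the HFD sets and 7.26 and 1.94 TPM in the control sets. The 4 Fads genes summed to 446 and 408 TPM against 491 and 431 TPM.

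Among the other elongases, Elovl7 averaged 20.7 and 27.9 TPM in the HFD sets and 20.3 and 17.9 TPM in the control sets and was held by 79.0% of all cells. Elovl2, an elongase of long polyunsaturated chains, Elovl3 and Elovl4 were at 1 TPM or more in 1, 0 and 0 of 367 cells. Acacb, the mitochondrial acetyl-CoA carboxylase whose malonyl-CoA restrains fatty acid oxidation, averaged 6.30 and 4.10 TPM against 6.26 and 3.70 TPM and was held by 35.4% of cells.

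Promoter sequences (RefSeq, GRCm38.p6, 300 bases, most of them before the start of transcription) were found for 7 of the 10 genes, with a second start for Elovl1, and with a start inside the gene for Acaca. Shown are Fasn, the synthase itself, Fads2, the most abundant transcript, Elovl1, one of the transcripts named below for the proliferation markers, and Elovl5, the only one with an E-box. Capitals mark CCAAT, the NF-Y box, on either strand, and CACGTG, the E-box bound by basic helix-loop-helix factors.
Fasn, chr11:120824498-120824797, minus strand: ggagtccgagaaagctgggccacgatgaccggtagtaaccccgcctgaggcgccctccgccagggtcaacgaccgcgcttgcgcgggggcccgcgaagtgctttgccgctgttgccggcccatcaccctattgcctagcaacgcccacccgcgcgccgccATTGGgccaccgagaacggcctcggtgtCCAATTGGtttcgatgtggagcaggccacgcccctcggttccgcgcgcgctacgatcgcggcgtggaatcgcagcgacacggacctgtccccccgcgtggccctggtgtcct
Fads2, chr19:10101454-10101753, minus strand: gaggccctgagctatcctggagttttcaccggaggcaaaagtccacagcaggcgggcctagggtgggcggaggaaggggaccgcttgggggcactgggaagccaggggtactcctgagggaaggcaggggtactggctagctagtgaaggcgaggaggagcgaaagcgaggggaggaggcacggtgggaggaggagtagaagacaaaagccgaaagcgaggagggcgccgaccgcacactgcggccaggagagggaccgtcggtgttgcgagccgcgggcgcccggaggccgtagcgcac
Elovl1, chr4:118427843-118428142, plus strand: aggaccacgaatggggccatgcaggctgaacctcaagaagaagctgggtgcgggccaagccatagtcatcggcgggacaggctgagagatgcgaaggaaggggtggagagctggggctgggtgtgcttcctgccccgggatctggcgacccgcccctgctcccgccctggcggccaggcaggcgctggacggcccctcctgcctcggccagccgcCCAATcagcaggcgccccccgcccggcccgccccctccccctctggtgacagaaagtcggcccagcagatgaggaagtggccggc
Elovl5, chr9:77917115-77917414, plus strand: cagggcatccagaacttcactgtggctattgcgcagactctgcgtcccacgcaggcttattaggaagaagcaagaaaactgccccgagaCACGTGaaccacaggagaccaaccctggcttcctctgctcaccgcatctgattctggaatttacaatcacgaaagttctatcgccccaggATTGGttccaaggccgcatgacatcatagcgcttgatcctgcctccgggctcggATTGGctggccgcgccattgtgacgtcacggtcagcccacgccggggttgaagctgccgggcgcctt

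The CCAAT box was found in 4 of the 7 genes (Acly, Elovl1, Elovl5 and Fasn), where 37.4% of 32851 promoters of this length hold it. In Fasn it was found 3 times, and 2 of these overlap head to head. TCACNCCAC, the sterol response element bound by SREBP, was found in none of the 7 and in 1.24% of all promoters, and CACGTG in 1 of the 7 and in 7.15% of all. GGGCGG, the GC box, was found in 3 of the 7 and in 35.7% of all. All motifs were sought on both strands. A match is a run of letters and not a bound site, and no match says only that these letters are not in these windows.

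The next comparison asked whether the enzymes follow the cell cycle within a sort. Each set was split at its median of a score, the mean log2(TPM + 1) of 38 S phase and 52 G2/M markers, into upper-scoring and lower-scoring cells. Of the 9 tested transcripts, 2 were called higher in the upper-scoring cells, Elovl1 and Fads1, and none lower, where 8.95% of 11667 genes were called (6.9% higher, 2.05% lower). At an unadjusted p under 0.05 they were 3 of the 9, with Fasn, where 21.6% of all genes passed. The median log2 difference was 0.26 over the 9 and 0.04 over all tested genes. Upper-scoring cells also had more genes above 0, with medians of 7312 and 6932.5 against 6109.5 and 5742 in HFD 1 and HFD 2, and of 7391 and 6798 against 6574 and 5584 in control 1 and control 2.

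Elovl1 averaged 91.1, 78.7, 61.4 and 70.5 TPM in the upper-scoring cells of HFD 1, HFD 2, control 1 and control 2, against 67.6, 57.4, 37.2 and 43.3 TPM in the lower-scoring cells. It was higher in 4 of 4 sets, with a log2 difference of 0.57 (SE 0.13, 95% interval 0.29 to 0.85, adjusted p 0.0187 by limma). Fads1 averaged 136, 113, 109.8 and 99.97 TPM in the upper-scoring cells against 81.97, 80.9, 77.1 and 82.3 TPM in the lower-scoring cells, again higher in 4 of 4 sets (log2 0.50, SE 0.11, 95% interval 0.24 to 0.75, adjusted p 0.0219 by limma). By mean TPM the lower-scoring cells of all 4 sets thus lay within a narrow range for Fads1, with more spread over sets in the upper-scoring cells. By share it was otherwise. Fads1 was held by 93.5%, 93.5%, 95.7% and 76.1% of the lower-scoring cells, against 100%, 95.7%, 100% and 100% of the upper-scoring cells. Neither spread was tested. With a set left out, the difference ran from 0.52 to 0.62 for Elovl1 and from 0.42 to 0.57 for Fads1. The call of Elovl1 was then lost without control 1 (adjusted p 0.0945) and without control 2 (0.0773), and that of Fads1 without HFD 1 (0.112), HFD 2 (0.062) or control 1 (0.0924). Both calls were also lost with no filter on low genes (0.0533 for Elovl1, 0.0814 for Fads1) and between the outer tertiles of the score (0.141 and 0.0513). That of Fads1 was lost with Rn45s left out (0.0541), and that of Elovl1 among cells with neither Paneth nor goblet markers (0.0583), all by limma.

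Elovl1 overlaps a neighbouring gene. Its last 53 exonic bases, chr4:118432901-118432953 on GRCm38, are shared with the exons of Cdc20, a G2/M marker of the score that is read from the opposite strand. No strand is stated for these libraries, so reads in that stretch cannot be told apart; 4 of the 2875 words of 50 bases in the Elovl1 transcripts occur in those of Cdc20. With Cdc20 left out of the score, and with it Fen1, an S phase marker 2255 bases beyond Fads1, Elovl1 differed by 0.59 (adjusted p 0.0152 by limma), though any reads it shares with Cdc20 stay in its TPM. Among the 215 of 367 cells with Cdc20 below 1 TPM, split again at the median, its log2 difference was -0.04 (SE 0.21, adjusted p 0.961). There Fads1 differed by 0.51 (SE 0.16, adjusted p 0.137), and 329 of 11699 genes were called. Since Cdc20 is a marker of the score, this limit also removes cells by the score and moves its median. The value of Elovl1 in these cells therefore cannot show what part shared reads have in its difference. The rank correlation of Elovl1 with Cdc20 over cells was 0.12 and 0.34 in the HFD sets and 0.02 and 0.25 in the control sets.

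The score's parts also differed. Split by the S phase markers alone, Elovl1 differed by 0.29 (adjusted p 0.288) and Fads1 by 0.37 (adjusted p 0.148). Split by the G2/M markers alone, Elovl1 differed by 0.18 (adjusted p 0.551) and Fads1 by 0.46 (adjusted p 0.0366). Split by the number of genes above 0 in place of the score, Fads1 differed by 0.40 (adjusted p 0.126) and Elovl1 by 0.41 (adjusted p 0.253), and none of the 9 was called, where 4.7% of all genes were (4.11% higher). These splits were added after the values of the first one were seen.

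**Figure D5:**
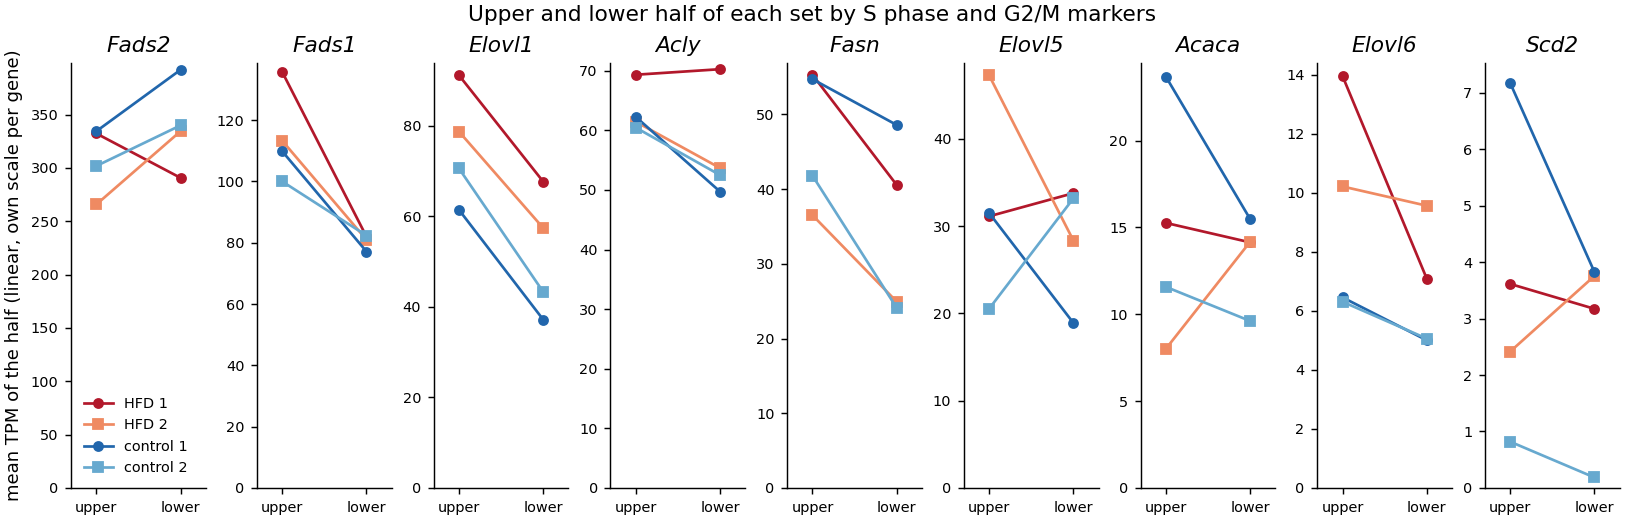
Mean TPM of the upper-scoring cells (left in each panel) and the lower-scoring cells (right) by S phase and G2/M markers, with a line for each of the 4 sets and a linear axis from 0 for each of the 9 tested transcripts. Elovl1, Fads1, Fasn and Elovl6 are higher in the upper-scoring cells of all 4 sets, and Fads2 in 1 of 4. The share of all tested genes that are higher in all 4 sets is not given here.

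The other 7 tested transcripts were not called. Fasn averaged 55.3, 36.5, 54.7 and 41.8 TPM in the upper-scoring cells against 40.6, 24.9, 48.6 and 24.1 TPM in the lower-scoring cells of HFD 1, HFD 2, control 1 and control 2, higher in 4 of 4 sets (log2 0.48, SE 0.16, adjusted p 0.0939 by limma). Elovl6 averaged 13.9, 10.2, 6.45 and 6.31 TPM against 7.08, 9.56, 5.001 and 5.06 TPM, also in 4 of 4 sets (log2 0.39, SE 0.26, adjusted p 0.443). Among the upper-scoring cells 68.9%, 45.7%, 60.9% and 53.3% held Elovl6, against 23.9%, 34.8%, 36.2% and 21.7% of the lower-scoring cells. Split by the number of genes above 0 instead, Elovl6 differed by 0.60 (SE 0.26, adjusted p 0.283 by limma). It was then held by 62.2%, 47.8%, 54.3% and 57.8% of the upper cells, against 30.4%, 32.6%, 42.6% and 17.4% of the lower cells. Neither these shares nor a run in 4 of 4 sets has a value over all genes beside it here. Fads2 ran the other way in 3 of 4 sets, with 332, 266, 334 and 302 TPM against 291, 334, 392 and 339.8 TPM (log2 -0.13, SE 0.09, adjusted p 0.458). When cells were averaged on the log scale instead, where the median of all genes is 0.26, Acly (0.64), Fasn (0.69) and Elovl6 (0.89) were called as well, 5 of the 9 in all, and 3236 of 11667 genes were called there (3064 higher).

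Whether the diet difference itself differs between upper-scoring and lower-scoring cells was tested on the 4 differences of the sets. No member and no gene was called by limma (0.0% of 11667), and the smallest adjusted p of a member was 0.910. At an unadjusted p under 0.05 there were 623 genes (5.34%) and none of the 9. The intervals were wide: HFD minus control, the difference was -0.26 for Elovl1 (95% interval -1.05 to 0.52) and 0.21 for Fads1 (95% interval -0.62 to 1.04).

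Split by 24 enterocyte markers, none of the 9 was called, where 0.00857% of all genes were, that is 1 gene. At an unadjusted p under 0.05 by limma there were 853 genes (7.31%) and 2 of the 9, Scd2 and Fads1. Scd2 was lower in the upper-scoring cells of 4 of 4 sets, at 1.19, 1.86, 4.72 and 0.316 TPM against 5.55, 4.31, 6.24 and 0.680 TPM (log2 -0.79, SE 0.35, adjusted p 0.676 by limma). These means rest on few cells, since 8.89%, 13.0%, 17.4% and 4.44% of upper-scoring cells held Scd2, against 19.6%, 17.4%, 19.1% and 6.52%. Fads1 was higher in 4 of 4, at 123, 102, 103 and 97.4 TPM against 94.2, 91.9, 83.4 and 84.8 TPM (log2 0.26, SE 0.11, adjusted p 0.676). How many of all genes ran one way in 4 of 4 sets is not given here.

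The cells that carry secretory markers hold these enzymes too. The 3 cases given were chosen after their values were seen, as those where all 4 sets ran the same way among 20 looked at, each enzyme in Paneth-carrying and in goblet-carrying cells. Elovl1 was lower in Paneth-carrying cells of every set, at 60.7, 62.2, 35.1 and 5.46 TPM in HFD 1, HFD 2, control 1 and control 2, against 85.9, 69.6, 50.7 and 60.4 TPM in the other cells. Elovl6 was lower in goblet-carrying cells of every set, at 2.65, 0.82, 4.61 and 1.72 TPM against 11.3, 10.6, 5.81 and 5.86 TPM, and so was Acly, at 55.4, 39.5, 53.7 and 29.2 TPM against 71.4, 59.0, 56.1 and 57.7 TPM. With 4 to 24 carrying cells in a set, and no like count over all genes given here, these values are a description without a test.

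From cell to cell the rank correlations between the enzymes were low, but no value over all pairs of genes is given beside them. The closest gene found for any enzyme, as given below, reached only 0.28. Over the cells within a set, the mean rank correlation of the 45 pairs ran from -0.12 to 0.23 with a median of 0.06, and over the 28 pairs without Scd1 and Scd2 from -0.05 to 0.17. The highest was Acly with Scd2 at 0.23, and the next Fads1 with Fads2 at 0.17, which was 0.39 and 0.07 in the HFD sets and 0.00 and 0.23 in the control sets. A cell held a median of 7 and 6 of the 10 transcripts in the HFD sets and 7 and 6 in the control sets. The cells of a set share their source, their depth is unknown and many values are 0, so these weak correlations are a description only.

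The transcripts most like each enzyme over cells were sought among 9135 genes held by at least 25% of cells. For Fasn they were Mcm2 (0.26) and Mcm6 (0.25), subunits of the replicative helicase, and Nolc1 (0.25). For Elovl6 they were Acsl3 (0.28), an acyl-CoA synthetase, Lbr (0.27), the lamin B receptor with sterol reductase activity, and Rad54l (0.26). Fads1 stood nearest to Tfrc (0.26), the transferrin receptor, and Fads2 to Ung (0.25), the uracil glycosylase of DNA repair. Acly stood nearest to Txnrd1 (0.25), thioredoxin reductase, Elovl1 to Id1 (0.26), Acaca to Pold1 (0.25), a DNA polymerase subunit, Elovl5 to Rassf7 (0.24) and Scd2 to Mrfap1 (0.24). For Scd2, Acly itself was at rank 3 (0.23). Each value is a mean of 4 sets and a top rank among all 9135. The rank correlation with the number of genes above 0 per cell was of like size for some, at 0.28 for Elovl6, 0.25 for Elovl1, 0.20 for Acaca and 0.19 for Fads1, and lower for Acly and Fasn (0.14), Elovl5 (0.12), Scd2 (0.05) and Fads2 (-0.05). Mcm2, Mcm6, Ung and Lbr are also markers of the score used above.

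The rest of the pathway was read from 6 lists. Of the 14 tested genes among 21 other enzymes of fatty acid synthesis, elongation and desaturation, none was called between the diets, with a median log2 fold change of 0.22. Those with the smallest p were Hsd17b12, Ptpla, Fads3 and Ptplb. Hsd17b12, the ketoacyl reductase, averaged 147 and 159 TPM in the HFD sets and 75.1 and 103 TPM in the control sets (log2 0.79, SE 0.25, adjusted p 0.225 by limma), and Ptpla, a hydroxyacyl dehydratase, 155 and 182 TPM against 100.4 and 126 TPM (log2 0.58, adjusted p 0.3997). Fads3 had a value of -0.64 and Ptplb, a second dehydratase, of 0.49. By proliferation 1 of the 14 was called higher, Tecr, the enoyl reductase that ends the cycle (log2 0.32, adjusted p 0.040 by limma), which is named because it was called. Over all tested genes 6.9% were called higher by proliferation and 2.05% lower.

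Of 11 genes that supply NADPH, the reductant of Fasn, none was called between the diets, with a median of 0.30. Mthfd2, a mitochondrial folate enzyme, averaged 32.0 and 37.7 TPM in the HFD sets and 18.6 and 20.5 TPM in the control sets (log2 0.80, adjusted p 0.2497 by limma), Taldo1 had 0.65, Idh1 0.41 and Me1, the cytosolic malic enzyme, 0.88. Me1 was low, at 3.79 and 0.911 TPM in HFD 1 and HFD 2 against 0.594 and 0.699 TPM in the control sets. By proliferation 2 of the 11 were called higher, Mthfd2 (1.60) and Me2 (0.46), where 6.9% of all tested genes were. Of 17 tested genes of SREBP1, ChREBP, LXR and their partners, none was called between the diets, with a median of 0.28. Insig1, which holds SREBP in the endoplasmic reticulum and is itself an SREBP target, averaged 37.6 and 39.9 TPM against 21.8 and 22.8 TPM (log2 0.77, SE 0.26, adjusted p 0.262), and it was the 1 gene of that list called higher by proliferation (1.20). Mid1ip1 had 0.41, Nr1h2 0.37 and Srebf2 0.43.

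Of 24 tested genes of fatty acid activation and glycerolipid synthesis, none was called between the diets, with a median of 0.09. Dbi, the acyl-CoA binding protein, averaged 375 and 518 TPM in the HFD sets and 254 and 298 TPM in the control sets (log2 0.68, adjusted p 0.376 by limma), Acsl6 had -1.04, Lpin3 -0.65 and Acsl3 0.46. Acsl6 was low, at 0.735 and 0.0416 TPM in the HFD sets against 1.75 and 1.80 TPM in the control sets. By proliferation Dbi (0.41) and Acsl3 (0.84) were called higher and Plin2, a coat protein of lipid droplets, lower (-0.49). The shares of all tested genes called by proliferation were 6.9% higher and 2.05% lower. Of 23 genes of cholesterol synthesis, 2 were called higher under HFD, Sqle (1.44, adjusted p 0.0190) and Sc4mol (1.47, adjusted p 0.0367), with a median of 0.46, and Fdps (1.27) and Idi1 (1.05) came next. Over all tested genes 0.369% were called higher under HFD and 0.137% lower, and with no filter on low genes none of 19092 was called, these included (1398 at an unadjusted p under 0.05 by limma); with Rn45s left out 6 genes were. By proliferation 9 of these 23 were called higher. Of 31 tested genes of fatty acid oxidation and PPAR targets, Fabp1 (3.41) and Acaa1b (2.13) were called higher and Cyp4a32 (-1.57) lower, with a median of 0.29, and Fabp2 had 0.998; by proliferation 1 was called higher and 3 lower.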

How the data were processed

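Per the labels' protocols, cells positive for Lgr5 were taken by flow cytometry from mice on either diet and sequenced by Smart-seq2. The deposited table holds TPM, 1 value per gene and cell, which the authors made with Bowtie2 and RSEM on the mouse build mm10, per the submitters' processing notes; the sources used here do not give versions, annotation or strand. Cells were assigned to 4 sets by their titles. All values were computed from the TPM of cells with at least 2000 genes above 0, averaged per set. limma (3.58.1, R 4.3.3, with a trend, two-sided) was run on the log2 of each set's mean TPM plus a pseudocount of 1, keeping genes whose mean over the sets reached 1 TPM, with Benjamini-Hochberg adjustment over all tested genes at 0.05. Changes on this scale understate those of low genes. Splits of the sets used the set as a block. The test of the diet difference between the splits used limma without a trend. Intervals of shares are 95% Clopper-Pearson, and for 0 cells the limit is that of 3 cells. No doublet caller was run. The main limma fits for diet, for proliferation and for the diet difference between the proliferation splits were run on simulated data with independent normal noise. The other fits were not simulated. Positions and shared words come from GENCODE M21 on GRCm38 (the same assembly as mm10), 1-based.

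The members and lists were chosen with earlier results of these data known. Named genes are the 10 enzymes, up to 4 genes of each other list with the smallest p between diets and each called there, and the 3 genes most like each enzyme, of which the first or all are given, with Acly added for Scd2. Alternatives covered Rn45s, scaling, pseudocount, filters, cell-wise logs, cell limits, secretory cells, a top cell, the replicate block and each set left out.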

Additional observations from a re-analysis of the deposited data

How the results depend on the processing

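No member was called between the diets in any of the 15 alternatives. The number of genes called was 59 (43 higher, 16 lower), and became 6 with Rn45s left out, 0 with no filter (1398 genes at an unadjusted p under 0.05 by limma), 14 with all cells, and 69 to 146 with a set left out, all of them by limma; median-ratio scaling gave 25 higher and 17 lower. The median log2 fold change of all genes, 0.13, became -0.05 with Rn45s left out and 0.00 with median-ratio scaling. No pairing was assumed, since the labels used here state none and the set numbers give only 2 pairs. The deviations of these pairs correlated at 0.23 over 11667 genes, and whether sets of one number share a source was not tested. With the replicate block 635 genes and no member were called. At an unadjusted p under 0.05 by limma, Elovl1 (0.0149), Elovl5 (0.0491) and Elovl6 (0.0270) passed with the block, where 2476 of 11667 genes did. Signs between the diets turned for Acly (-0.0074) and Fads1 (-0.033) with Rn45s left out, for Fasn (0.0553) in cells without secretory markers, and with a set left out for Acaca (-0.58 to 0.25), Fasn (-0.42 to 0.22) and Scd2 (-0.61 to 1.497). A diet left with 1 set was assumed to vary like the other.

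By proliferation, 2 members and 1044 genes were called. No filter gave 0 members and 392 genes, cell-wise logs 5 and 3236, outer tertiles 0 and 1198, cells without secretory markers 1 and 794, Rn45s left out 1 and 932, a set left out 0 to 1 members and 660 to 788 genes, S phase markers 0 and 547, G2/M markers 1 and 856, and cells with Cdc20 below 1 TPM 0 and 329. In that last setting Elovl1 (-0.0378), Scd2 (-0.97) and Fads2 (0.0161) changed sign, as did Scd2 (-0.25) with S phase markers and Acaca (-0.0861) in cells without secretory markers. With a set left out Acaca ran from -0.13 to 0.31 and Elovl5 from -0.0244 to 0.44. By enterocyte markers, 1 gene was called, which became 0 with no filter (1005 at an unadjusted p under 0.05 by limma), 5 with cell-wise logs, 2 with outer tertiles and 1 to 6 with a set left out. There Fasn turned to 0.10 with outer tertiles, Elovl6 to -0.0802 in cells without secretory markers, and Fasn ran from -0.23 to 0.0468 with a set left out. The test of the diet difference between upper-scoring and lower-scoring cells called 0 genes in each of its 7 alternatives by limma (553 to 774 at an unadjusted p under 0.05). The cause of these changes was not tested. The mean difference in shares over the 10 members was 0.255 percentage points and ran from -4.82 to 5.33 with a set left out. Depth is unknown, so the limit it sets on absent transcripts cannot be given.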
